A study of Mus musculus with 12 samples.

Results

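Cmah, Slc22a23, Utp14b, Spon2, 2210407C18Rik, Mbd6, Ggact, Med10 and Dennd1a are 9 protein-coding genes, of 25284 in the count table, selected on their read counts in thoracic aorta, because these separated vehicle-treated control mice from mice treated with AZ6983 fully or nearly so. The group difference they were chosen by is therefore given as a description, without a test, and tests are kept for what the choice did not use. All 12 mice were male ApoE-/- animals, which lack apolipoprotein E and develop atherosclerosis, and all were fed a high fat diet with added cholesterol. Treatment was given by osmotic minipump for 8 weeks up to an age of 18 weeks, as vehicle in 6 control mice (C1 to C6) or as the α7nAChR agonist AZ6983 at 50 µmol per kg per day in 6 mice (A1 to A6). A pump doses the whole animal and not the aorta alone. Stranded total RNA of the aorta was sequenced after removal of ribosomal RNA, so unspliced RNA was measured too.

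The genes do unrelated work in the cell. Cmah encodes the hydroxylase that turns CMP-N-acetylneuraminic acid into the N-glycolyl form, a sialic acid that mice place on cell surfaces and that humans cannot make. Slc22a23 belongs to the SLC22 family of membrane carriers of organic ions and is an orphan member with no settled substrate. Utp14b is a retrotransposed copy of the X-linked gene Utp14a, which encodes a part of the small subunit processome that matures 18S ribosomal RNA, and loss of Utp14b in mice depletes spermatogonia. Spon2 encodes mindin, a secreted matrix protein of the spondin family that binds microbial products and integrins. Mbd6 carries a methyl-CpG binding domain and associates with the BAP1 histone H2A deubiquitinase, Med10 is a subunit of Mediator, which links transcription factors to RNA polymerase II, and Ggact cleaves gamma-glutamylamines released when proteins crosslinked by transglutaminases are degraded. Dennd1a encodes connecdenn 1, an exchange factor that activates Rab35 at clathrin-coated sites of endocytosis, and 2210407C18Rik is known by its RIKEN clone name.

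Each mouse had 23810036 to 35864666 counts on genes. Reads that overlapped no counted feature are called reads on no gene here. The feature type that was counted is not given, so reads in introns of annotated genes may be among them. Their share was 8.02% to 12.7% of the table in controls and 11.2% to 14.9% in AZ6983 mice (means 10.1% ± 1.55 and 12.8% ± 1.36, SD, n = 6 each). This share thus differed between the groups that the 9 genes separate. Control C2, at 12.7%, lay inside the AZ6983 range. The number that ends its column name is 12, while the other 5 controls carry numbers 3 to 7. The AZ6983 mice carry numbers 1, 2 and 8 to 11. The meaning of this numbering is not given, and apart from C2 it keeps the groups in separate blocks, so it largely cannot be told apart from treatment. The smooth muscle marker Myh11 had 111390 to 220066 counts per mouse. The brown fat marker Ucp1 had 31322 to 91236 counts, so the dissected vessel came with brown fat in every mouse, and the T cell marker Cd8a ranged from 5 counts to 4230 counts. Among the checks, Chrna7, which encodes the target of AZ6983, had a log2 fold change of -0.62 (edgeR, adjusted p = 0.591) and residual Apoe RNA one of 0.25 (adjusted p = 0.649).

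All 9 genes passed the filter on low counts, as 15857 genes did. Expression is in CPM (counts divided by TMM-normalized library size and scaled alike in all mice), and separation is the number of the 36 pairs of 1 control and 1 AZ6983 mouse that are ordered as the group means are. In 6 of the 9 genes (Slc22a23, 2210407C18Rik, Mbd6, Ggact, Med10 and Dennd1a) the groups did not overlap, as they did not in 0.410% of all genes tested, and all 9 had at least 33 ordered pairs, as 3.06% of all genes did. These shares say only how the genes were chosen. With edgeR at 10% FDR, 0 of 15857 genes (0%) differed between the groups, the smallest adjusted p was 0.157 and 1616 genes had an unadjusted p under 0.05. DESeq2 at the same FDR called 84 here. The study applied 10% FDR with DESeq2. Its list of differing genes names each of the 9 except Utp14b by symbol. It also holds an entry UTP14C, higher with AZ6983 as Utp14b was here, and does not say whether that entry stands for Utp14b. The 6 higher genes are described first and the 3 lower genes after them. In bulk tissue fewer cells of a type and less RNA per cell cannot be told apart.

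**Figure D1:**
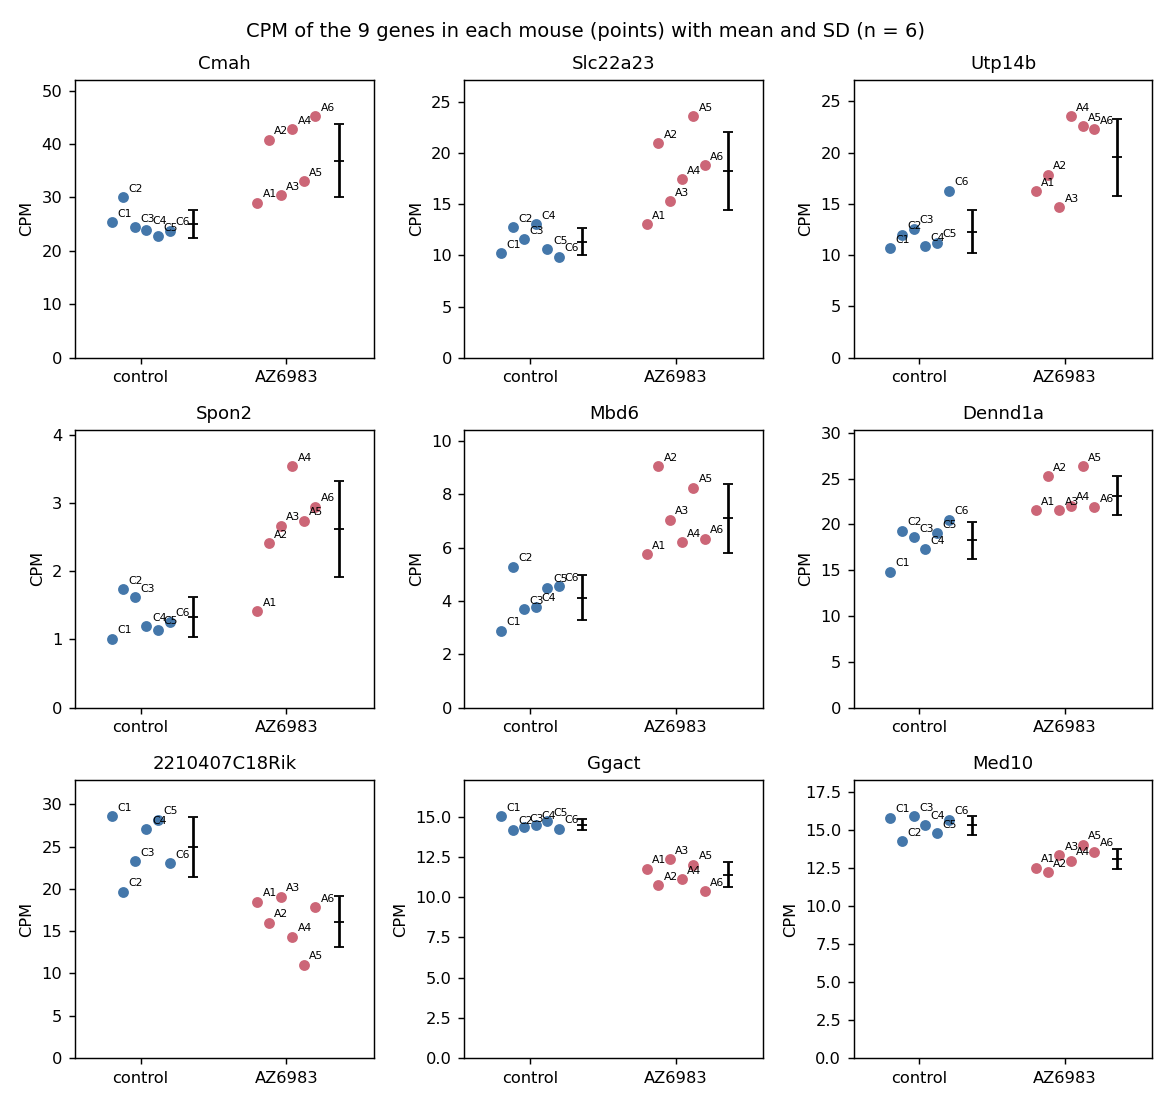
CPM of each of the 9 genes (vertical axis, from 0) in every control and AZ6983 mouse (points, labelled by mouse), with the group mean and SD (black bars, n = 6). Groups overlap in Cmah, Utp14b and Spon2 and do not in the other 6 genes, and C2 is the control nearest to the AZ6983 mice in 6 of the 9.

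Cmah lies on chr13:24327404-24477377 (GRCm38, plus strand), with 92.9% of its span intronic. Its level ran from 22.8 CPM over a median of 24.2 to 30.05 CPM in controls, and from 29.0 CPM over a median of 37.0 to 45.3 CPM in AZ6983 mice. The single pair out of order was C2, the highest control, against A1, the lowest AZ6983 mouse. Within the AZ6983 group the values lay in a lower set (A1, A3 and A5, at 29.0, 30.4 and 33.1 CPM) and a higher set (A2, A4 and A6, at 40.9, 42.8 and 45.3 CPM). The log2 fold change of AZ6983 over control was 0.56 (SE 0.118), or 1.47-fold.

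Slc22a23, the orphan carrier, lies on chr13:34179158-34345182 (GRCm38, minus strand). Controls ran from 9.86 CPM over a median of 11.1 to 13.1 CPM, and AZ6983 mice from 13.1 CPM over a median of 18.2 to 23.7 CPM. The groups met without overlap, since the highest control, C4, and the lowest AZ6983 mouse, A1, were 0.0111 CPM apart. A5 was the highest mouse and A2, at 21.0 CPM, the next. The log2 fold change was 0.68 (SE 0.135), between 0.58 without A5 and 0.76 without A1.

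Utp14b lies on chr1:78658038-78671512 (GRCm38, plus strand) inside Acsl3, a gene for a long-chain acyl-CoA synthetase, at chr1:78657825-78707743 on the same strand. Controls ran from 10.7 CPM over a median of 11.6 to 16.3 CPM, and AZ6983 mice from 14.7 CPM over a median of 20.05 to 23.6 CPM. C6, the highest control, lay above both A3, at 14.7 CPM, and A1, and the other 5 controls stayed below every AZ6983 mouse. This amounts to a log2 fold change of 0.67 (SE 0.140).

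The coding sequences of Utp14b and Utp14a were 77.9% identical over 2253 aligned bases, and the longest identical run was 30 bases. A stretch of 75 bases, the length of 1 read, is printed with the 11 differing bases in capitals, because these differences are what separates reads of the retrocopy from reads of its source gene.

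Utp14a, coding bases 69 to 143: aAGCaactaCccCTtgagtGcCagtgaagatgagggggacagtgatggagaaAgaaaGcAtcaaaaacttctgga

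Utp14b, coding bases 141 to 215: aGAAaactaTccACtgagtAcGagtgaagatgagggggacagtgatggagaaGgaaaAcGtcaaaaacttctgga

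Of 7604 distinct 75-base words in Utp14b transcripts, 0 were found in Utp14a or in the annotated pseudogene Utp14b-ps1 and 133 (1.75%) in Acsl3, which shares 244 exonic bases with Utp14b. These words come from annotated spliced transcripts, and since Utp14b lies within Acsl3 on the same strand, reads of unspliced Acsl3 RNA on Utp14b exons cannot be told apart from Utp14b reads. RefSeq places the first base of both Acsl3 and Utp14b at position 78657825, so the promoter stretch of Acsl3 (chr1:78657575-78657874, GRCm38.p6, plus strand, from RefSeq) is shown as the stretch before the annotated start of both. Which start was used in these samples was not measured. Capitals mark GC boxes (GGGCGG) and CCAAT boxes on either strand, and here 1 CCAAT box directly precedes a GC box. RefSeq also gives a separate start for Utp14b, and that stretch (chr1:78658190-78658489, plus strand) is printed with it. It holds no GC, CCAAT or TATA box and 1 E box (CACGTG, in capitals).

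Acsl3 promoter: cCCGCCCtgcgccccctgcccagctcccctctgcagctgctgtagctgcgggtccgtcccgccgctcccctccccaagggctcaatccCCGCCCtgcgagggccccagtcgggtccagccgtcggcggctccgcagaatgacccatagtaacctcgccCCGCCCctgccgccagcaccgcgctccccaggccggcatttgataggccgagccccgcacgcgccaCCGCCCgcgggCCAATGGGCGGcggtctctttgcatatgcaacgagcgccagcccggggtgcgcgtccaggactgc

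Utp14b promoter, separate start: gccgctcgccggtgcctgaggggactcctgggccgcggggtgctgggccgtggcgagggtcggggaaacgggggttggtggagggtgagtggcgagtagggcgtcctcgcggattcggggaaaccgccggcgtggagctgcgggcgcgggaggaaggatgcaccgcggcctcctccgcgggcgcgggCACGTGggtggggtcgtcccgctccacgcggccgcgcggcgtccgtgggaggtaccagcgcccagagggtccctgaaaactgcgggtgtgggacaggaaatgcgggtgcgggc

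Utp14a, the source gene, had 18.4 CPM ± 0.597 in the control and 18.7 CPM ± 1.49 in the AZ6983 group (SD, n = 6 each), with a log2 fold change of 0.02 (SE 0.062, edgeR adjusted p = 0.909) and 23 of 36 ordered pairs. Acsl3, like Utp14b, was at a higher mean level in AZ6983 mice, with 37.5 CPM ± 6.82 and 50.3 CPM ± 9.91, a log2 fold change of 0.42 (SE 0.140, edgeR adjusted p = 0.448) and 31 of 36 ordered pairs, and its difference was not tested against that of Utp14b. Within groups Utp14b had r = 0.313 (permutation p = 0.350) and rho = 0.514 (permutation p = 0.116) with Acsl3, with r = -0.0993 in controls and 0.632 in AZ6983 mice. With Utp14a it had r = 0.0562 (permutation p = 0.886) and rho = -0.114 (permutation p = 0.764). That pooled r joins -0.861 among controls (exact permutation p = 0.0806) with 0.352 among AZ6983 mice (exact permutation p = 0.581), and it was -0.633 without A2 and A4. Whether the relation differs between the groups was not tested.

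Spon2, the gene of mindin, lies on chr5:33198184-33218455 (GRCm38, minus strand) and was the least abundant of the 9, with 29 to 47 counts per control mouse and 38 to 133 counts per AZ6983 mouse. Controls ran from 1.01 CPM over a median of 1.22 to 1.74 CPM, and AZ6983 mice from 1.41 CPM over a median of 2.70 to 3.54 CPM. A1 stood among the controls, below C2 and C3, and the other 5 AZ6983 mice were above every control. Its log2 fold change of 0.98 (SE 0.217) was the largest in size of the 9 and also the one with the largest standard error. It ranged from 0.87 without A4 to 1.11 without A1.

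Mbd6 lies on chr10:127281956-127289018 (GRCm38, minus strand), a compact gene in which 36.9% of the span is intronic. Controls ran from 2.89 CPM over a median of 4.15 to 5.30 CPM, and AZ6983 mice from 5.76 CPM over a median of 6.70 to 9.06 CPM. C1 was the lowest mouse and C2 the highest control, while A1 was the lowest AZ6983 mouse and A2 the highest. Its log2 fold change was 0.79 (SE 0.160), or 1.72-fold.

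Dennd1a, the Rab35 exchange factor, spans chr2:37798991-38287390 (GRCm38, minus strand), with 96.9% of the span intronic. Controls ran from 14.8 CPM over a median of 18.8 to 20.5 CPM, and AZ6983 mice from 21.5 CPM over a median of 22.0 to 26.4 CPM. A1, A3, A4 and A6 lay within 21.5 to 22.1 CPM, with A2 and A5 above them at 25.2 and 26.4 CPM. The difference came to 0.34 on the log2 scale (SE 0.085).

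The promoters of Mbd6 and Dennd1a are printed because these genes were the pair among the 9 that moved most closely together within groups (r given with the other pairs). The stretches run from 250 bases before to 50 bases after the RefSeq start, at chr10:127288969-127289268 for Mbd6 (the first of 2 entries) and chr2:38287335-38287634 for Dennd1a (GRCm38.p6, minus strand, printed 5′ to 3′ of the gene). Capitals mark GGGCGG and CCAAT on either strand.

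Mbd6 promoter: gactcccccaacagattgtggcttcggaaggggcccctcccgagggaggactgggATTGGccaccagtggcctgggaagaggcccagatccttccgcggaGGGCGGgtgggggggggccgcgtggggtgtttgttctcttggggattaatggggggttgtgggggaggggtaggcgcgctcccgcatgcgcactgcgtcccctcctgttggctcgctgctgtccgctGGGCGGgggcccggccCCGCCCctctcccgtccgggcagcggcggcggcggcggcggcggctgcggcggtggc

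Dennd1a promoter: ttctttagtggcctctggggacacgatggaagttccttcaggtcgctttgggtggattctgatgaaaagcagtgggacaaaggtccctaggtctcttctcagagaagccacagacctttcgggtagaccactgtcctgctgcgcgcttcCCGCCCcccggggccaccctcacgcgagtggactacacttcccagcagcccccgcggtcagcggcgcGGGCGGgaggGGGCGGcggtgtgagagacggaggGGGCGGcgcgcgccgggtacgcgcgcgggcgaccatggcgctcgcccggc

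Both stretches are rich in G and C (74.0% for Mbd6 and 67.7% for Dennd1a, against a median of 52.7% over 32851 RefSeq promoters). They hold 3 and 4 GC boxes. Such values were not particular to this pair. The Slc22a23 promoter had 77.3% G and C with 4 GC boxes, and that of Ggact, a lower gene, 67.3% with 5. A GC box was found in 35.66% of all promoters of this length.

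2210407C18Rik lies on chr11:58608204-58616075 (GRCm38, minus strand). It was the largest decrease in size of the 9 and, per kilobase of exon, the most abundant of them, at 17.8 CPM per kb ± 2.53 in controls and 11.5 ± 2.18 in AZ6983 mice (SD over 6 mice a group), against 0.450 and 0.888 CPM per kb for Spon2, the lowest. Controls ran from 19.6 CPM over a median of 25.2 to 28.6 CPM, and AZ6983 mice from 11.03 CPM over a median of 16.9 to 19.1 CPM. C2 was the lowest control, 0.563 CPM above A3, the highest AZ6983 mouse, and A5 was the lowest of all. The log2 fold change was -0.63 (SE 0.135), or 0.646-fold.

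Its RefSeq promoter (chr11:58613443-58613742, GRCm38.p6, minus strand) is shown because it is unlike those of Mbd6 and Dennd1a, with 44.0% G and C, no GC box, 1 CCAAT box and 1 TATA box (TATAAA), in capitals.

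2210407C18Rik promoter: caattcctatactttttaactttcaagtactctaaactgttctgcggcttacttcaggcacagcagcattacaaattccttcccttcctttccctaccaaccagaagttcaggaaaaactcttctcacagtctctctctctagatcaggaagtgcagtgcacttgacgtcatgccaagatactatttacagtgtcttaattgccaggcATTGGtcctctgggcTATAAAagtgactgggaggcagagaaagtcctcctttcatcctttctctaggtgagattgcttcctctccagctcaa

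The promoter entries of Cmah, a higher gene, held no GC box either, at 47.3% and 48.7% G and C. TATAAA on either strand was found in 13.62% of all promoters and CCAAT in 37.41%. Of the 8 members with an entry, 2210407C18Rik alone held a TATA box, 5 held a GC box, 3 held a CCAAT box and 1, Utp14b, held an E box (CACGTG, in 7.15% of all promoters). A member with more than 1 entry was counted if any of them held the motif. The percentages are of single entries, so the counts and percentages are not of the same unit. A match of letters is a description of these windows and not of a factor that binds there.

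Ggact, the gamma-glutamylamine cyclotransferase, lies on chr14:122816223-122913757 (GRCm38, minus strand) and was the least variable of the 9 in controls, with a coefficient of variation of 2.21%. Controls ran from 14.2 CPM over a median of 14.4 to 15.0 CPM, and AZ6983 mice from 10.4 CPM over a median of 11.4 to 12.3 CPM. The gap between the groups was 1.85 CPM, more than the whole range of the control mice. The log2 fold change was -0.35 (SE 0.060), between -0.38 and -0.32 when any 1 mouse was left out. On the opposite strand, exons of Pcca and 4930594M22Rik cover 374 exonic bases of Ggact (6.85%).

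Med10 lies on chr13:69802395-69816104 (GRCm38, plus strand). Controls ran from 14.3 CPM over a median of 15.5 to 15.9 CPM, and AZ6983 mice from 12.2 CPM over a median of 13.2 to 14.0 CPM. C2, the lowest control, and A5, the highest AZ6983 mouse, were 0.259 CPM apart, and the log2 fold change of -0.22 (SE 0.057) was the smallest in size of the 9. Exons of the long noncoding RNA Gm26819 cover 92.8% of the exonic bases of Med10 on the opposite strand, and the strand setting of the counting is not given in the sources used here, so reads of the 2 genes cannot be told apart with certainty. Gm26819 itself was not analysed here.

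The mice nearest to the opposite group recurred from gene to gene. C2 was the control nearest to the AZ6983 mice in 6 genes (Cmah, Spon2, Mbd6, 2210407C18Rik, Ggact and Med10), C6 in 2 and C4 in 1. C1, the control with the lowest share of reads on no gene, was the farthest in 6. Among AZ6983 mice, A1 and A3 were each nearest to the controls in 4 genes and A5 in 1, and A1 had the lowest share of its group.

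The share of reads on no gene was then related to each gene within groups, a relation that the choice of the genes did not use. In the edgeR model with group, Mbd6 had the steepest slope, 0.16 log2 units per percentage point (SE 0.042, adjusted p = 0.183 over all genes). Slopes of the other higher genes were 0.13 for Spon2 (SE 0.079, adjusted p = 0.528), 0.091 for Cmah (SE 0.036, adjusted p = 0.314) and 0.082 for Slc22a23 (SE 0.047, adjusted p = 0.480). Those of Dennd1a and Utp14b were 0.063 (SE 0.028, adjusted p = 0.361) and 0.046 (SE 0.055, adjusted p = 0.788). The 3 lower genes had negative slopes, at -0.069 for 2210407C18Rik (SE 0.049, edgeR adjusted p = 0.587), -0.032 for Ggact (SE 0.021, adjusted p = 0.549) and -0.022 for Med10 (SE 0.021, adjusted p = 0.708).

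By edgeR 0 of the 9 slopes passed 10% FDR, and 3 (Mbd6, Cmah and Dennd1a) had an unadjusted p under 0.05. Over all genes 1 slope passed in the positive direction (0.00631%), that of the nuclear noncoding RNA Kcnq1ot1, named after its value was seen, and 0 in the negative direction (0%), with 2142 genes at an unadjusted p under 0.05. The Mbd6 slope passed with DESeq2 (0.15, adjusted p = 0.0531), where 2.41% of all genes had a positive slope that passed, and with edgeR without A5 (0.16, adjusted p = 0.0775), where 2.34% did. No other slope of the 9 passed in these 2 fits. All 9 slopes had the sign of their gene's group difference, as did 82.3% of the 486 genes with at least 33 ordered pairs and 69.2% of all genes tested.

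Over the 12 mice, with each group centred on its mean, log2 CPM of Mbd6 followed the share with r = 0.811 (permutation p = 0.00392) and rho = 0.829 (permutation p = 0.00407), where 9 such relations were computed and these p-values are unadjusted. In controls alone r was 0.941 (exact permutation p = 0.00833) and in AZ6983 mice alone 0.636 (exact permutation p = 0.181). Leaving out C1 and A2, whose shares lie farthest from the median, gave r = 0.611. The order of the mice shows this relation, since C1 had both the lowest share and the lowest Mbd6 level and A2 had both the highest.

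For Ggact r was -0.637 (permutation p = 0.0162) and rho -0.743 (permutation p = 0.0148), with r = -0.513 without C1 and A2. For Dennd1a rho was 0.800 (permutation p = 0.00662) and r 0.625 (permutation p = 0.0506), and r dropped to 0.274 without these 2 mice, so the straight-line relation rests on them. Cmah had r = 0.627 (permutation p = 0.0322) but rho = 0.343 (permutation p = 0.319). The other 5 genes had r between -0.474 and 0.515, each with a permutation p over 0.05, although rho was -0.657 for 2210407C18Rik (permutation p = 0.0370).

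**Figure D2:**
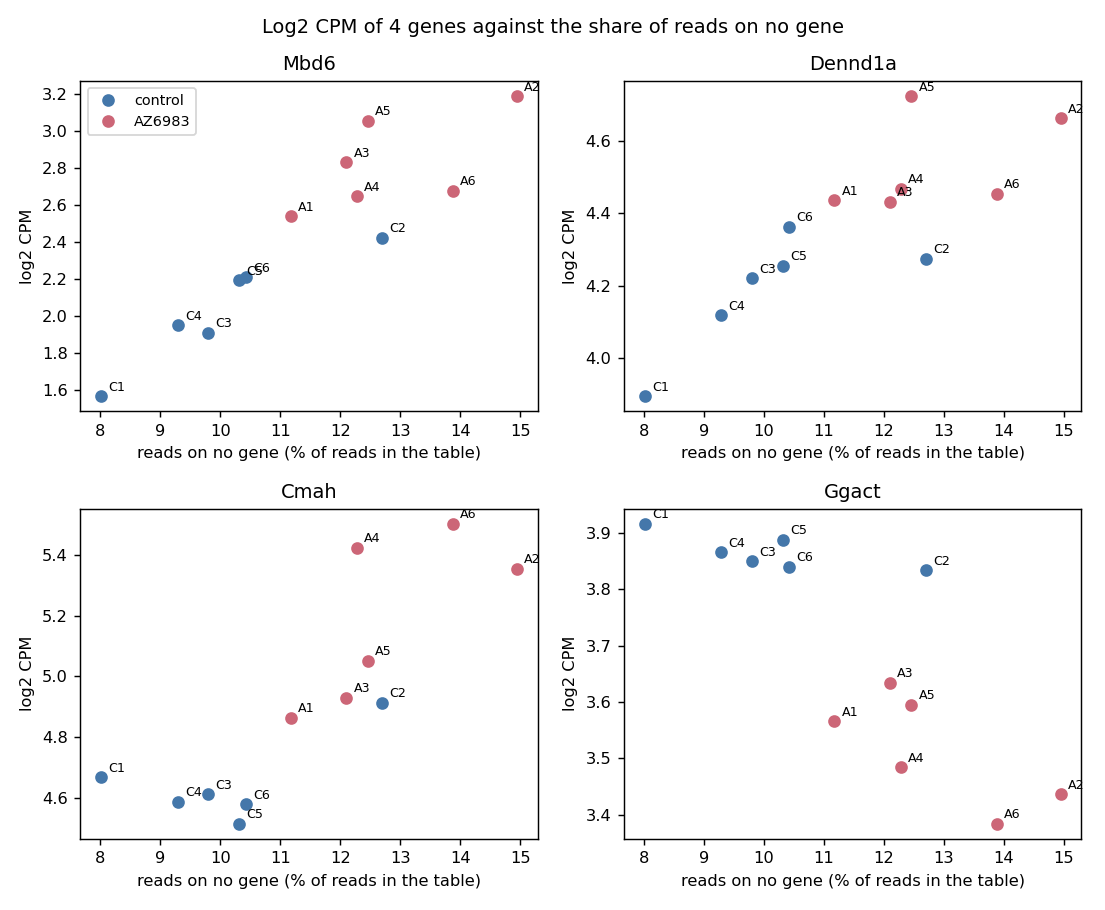
Log2 CPM of Mbd6, Dennd1a, Cmah and Ggact (vertical axes) against the share of reads on no gene (horizontal axes), 1 labelled point per mouse, controls in blue and AZ6983 mice in red. The share is the percent of the table's reads that overlapped no counted feature. Mbd6 is higher where the share is higher inside both groups (r = 0.941 in controls and 0.636 in AZ6983 mice). In Ggact the lowest control is C2, at a share of 12.7%. Ggact was chosen because its groups separate, so C2 lies above every AZ6983 point by that choice.

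With the share in the model beside group, the group differences were smaller in size for all 9 genes, which follows from the common sign of slope and difference. The log2 fold change went from 0.79 to 0.38 (SE 0.160) for Mbd6, from 0.34 to 0.17 (SE 0.105) for Dennd1a and from 0.56 to 0.31 (SE 0.143) for Cmah. Spon2 went from 0.98 to 0.65 (SE 0.294), Slc22a23 from 0.68 to 0.45 (SE 0.183) and Utp14b from 0.67 to 0.55 (SE 0.206). Among the lower genes 2210407C18Rik went from -0.63 to -0.44 (SE 0.187), Ggact from -0.35 to -0.26 (SE 0.077) and Med10 from -0.22 to -0.16 (SE 0.078). Since the share itself differed between the groups, part of each difference cannot be told apart from it.

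**Figure D3:**
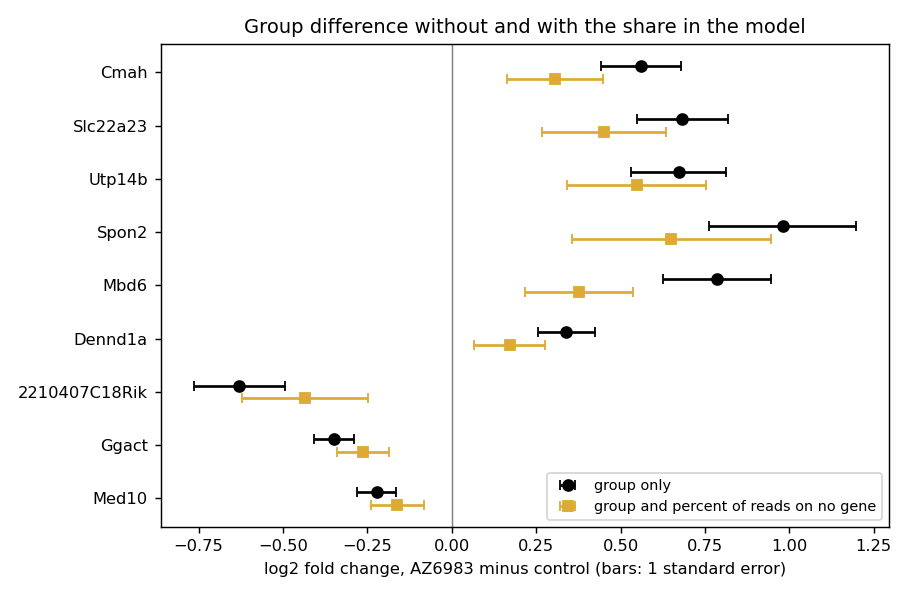
Log2 fold change of AZ6983 over control (horizontal axis, bars 1 standard error) of each gene from the model with group only (circles) and with group and the percent of reads on no gene (squares). Every square lies nearer to 0 than its circle, from 0.79 to 0.38 for Mbd6 and from -0.35 to -0.26 for Ggact.

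Tissue make-up was followed with marker lists, scored as the mean log2 CPM of their genes in each mouse, and each gene's slope on each of 10 scores was tested with group in the model. Of the 90 pairs of a gene and a list, 1 passed 10% FDR and 7 had an unadjusted p under 0.05. That pair was Slc22a23 on the brown fat score, with a slope of 0.38 log2 units per unit of score (SE 0.129, edgeR adjusted p = 0.0799), in a fit where 17.5% of all genes passed. All 8 brown fat genes were measured, and the score was 6.92 to 7.95 in controls and 7.14 to 8.40 in AZ6983 mice, with A5 highest and C6 lowest.

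The values behind this slope are given as a description, since the pair was taken up for its call among 90 on the same mice. Within groups r was 0.686 and rho 0.800, with r = 0.701 in controls alone, 0.695 in AZ6983 mice alone and 0.454 without A5 and C6, the mice farthest from the median score. The call was lost without C2 (adjusted p = 0.115), C4 (0.115), C6 (0.111), A1 (0.115), A5 (0.433) or A6 (0.112) in edgeR. The median score was lower in AZ6983 mice (7.30) than in controls (7.81), while Slc22a23 was higher, and the part of brown fat in the group difference of Slc22a23 was not tested.

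**Figure D4:**
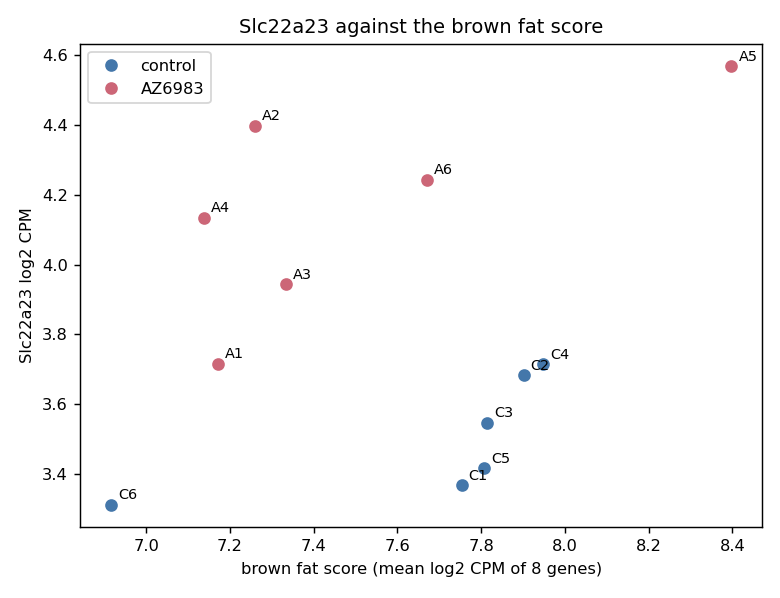
Log2 CPM of Slc22a23 (vertical axis) against the brown fat score, the mean log2 CPM of 8 genes (horizontal axis), 1 labelled point per mouse, controls in blue and AZ6983 mice in red. The gene was chosen because its groups separate, so AZ6983 points lie above control points by that choice. A5, at a score of 8.40, is the highest on both axes.

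For 2210407C18Rik, the lower gene with the largest change, slopes pointed the other way on fat, at -0.83 on white fat (SE 0.227, edgeR adjusted p = 0.128, in a fit where 0.0126% of all genes passed). They were 0.95 on smooth muscle (SE 0.390, adjusted p = 0.151, 15.6% of all genes passing) and 0.62 on macrophage markers (SE 0.268, adjusted p = 0.226, 6.57% passing). Slc22a23 had further slopes of 1.70 on endothelium (SE 0.700, edgeR adjusted p = 0.149, 15.7% passing) and 0.59 on white fat (SE 0.256, adjusted p = 0.224). Spon2 had one of -1.11 on fibroblast markers (SE 0.499, edgeR adjusted p = 0.228, 7.59% passing). These 6 pairs did not pass the threshold.

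None of the 9 genes passed in the fits on T cell markers (4.17% of all genes passing), nerve (0.656%), skeletal muscle (0.404%) or neutrophil markers (0%). The T cell score was 4.94 in A4 and at most 1.22 in any other mouse. The Cmah slope on it was 0.075 (SE 0.038, edgeR adjusted p = 0.613). Of the 9 neutrophil markers 7 were tested, and their score ran from 0.783 to 2.39 in controls and from 1.75 to 4.32 in AZ6983 mice. The median of that score was higher in AZ6983 mice (3.09) than in controls (1.55), as the higher genes were and the lower genes were not. Its part in the group differences of the 9 genes was not tested.

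Among themselves the 9 genes make 36 pairs, 18 of genes with group differences in the same direction and 18 of genes with opposite ones. Within groups r was positive in 17 of the 18 same-direction pairs (median 0.403) and negative in 15 of the 18 opposite pairs (median -0.336). The 36 pairs come from 9 genes and are not independent. No such count was made for other genes, so it is not read as a trait of the 9. Slopes on the share of reads on no gene had the sign of the group difference in 82.3% of genes with at least 33 ordered pairs. Of the 36 pairs 5 had an unadjusted permutation p under 0.05, and 0 did after adjustment over the pairs. The closest pair was Mbd6 and Dennd1a (r = 0.869, and 0.871 in controls and 0.866 in AZ6983 mice). Cmah and Ggact were the most opposed (r = -0.812, but -0.357 in controls and -0.900 in AZ6983 mice). All points of these relations share a library, so its depth and make-up enter both axes.

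The genes most like each member were read from the same within-group values, among 13993 genes with a mean of at least 1 CPM and over 12 mice, as a description without a test. Slc22a23 was closest to Sympk (r = 0.979), which encodes a scaffold of mRNA 3′ end processing, followed by Lipg and Arhgap31. Mbd6 was closest to Ep400 (r = 0.954), a chromatin remodeller, then Sec16a and Notch3, and Dennd1a to Huwe1 (r = 0.944), a ubiquitin ligase, then Vps13b and Sp2. Spon2 was closest to Sugp2 (r = 0.961), then Vcp-rs and Nvl. Cmah was closest to Uspl1 (r = 0.915), then Grwd1 and Leo1, and Utp14b to Cfap54 (r = 0.913), then Smarcb1 and Neto2. Of the lower genes 2210407C18Rik was closest to Rspo3 (r = 0.930), which encodes a secreted enhancer of Wnt signalling, then Lgalsl and Atg4a. Ggact was closest to Trappc2l (r = 0.912), then Ubox5 and Mzt2, and Med10 to D330023K18Rik (r = 0.886), then 0610040B10Rik and Tprn.

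Families and pathways around 8 of the genes were then compared between the groups. Of 190 listed genes 161 were tested, and 0 passed 10% FDR with edgeR or with DESeq2, with a smallest adjusted p of 0.447 by edgeR. At an unadjusted p under 0.05, 17 were higher and 4 lower in AZ6983 mice, beside 1170 higher and 446 lower of all 15857 genes. The median log2 fold change of all genes was 0.00897.

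Around Mbd6, all 19 genes for other methyl-CpG binding domain proteins and parts of the BAP1 complex were tested, with a median log2 fold change of 0.14, and 7 were higher and 0 lower at an unadjusted p under 0.05. Baz2a, a silencer of ribosomal RNA genes, had a log2 fold change of 0.31 (SE 0.096, edgeR adjusted p = 0.447), Asxl2, a BAP1 cofactor, one of 0.22 (SE 0.068, adjusted p = 0.447) and Ogt, the O-GlcNAc transferase, one of 0.22 (SE 0.084, adjusted p = 0.450). Around Dennd1a, 15 of 15 genes were tested, with a median of 0.12 and 2 higher at that p, Dennd2d with 0.82 (SE 0.227, edgeR adjusted p = 0.447) and Dennd4b with 0.26 (SE 0.111, adjusted p = 0.472). Dennd1c had a value of 0.58 (SE 0.277, adjusted p = 0.501).

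Of the 32 other Mediator genes, 32 were tested with a median of 0.015 and values from -0.15 to 0.42, beside -0.22 for Med10. Med12, Med12l and Med13l, of the kinase module, were higher at an unadjusted p under 0.05, with log2 fold changes of 0.28 (SE 0.087, edgeR adjusted p = 0.447), 0.42 (SE 0.131, adjusted p = 0.447) and 0.23 (SE 0.104, adjusted p = 0.489). In the small subunit processome, 37 of 37 genes were tested, 0 passed even the unadjusted p, and values ran from -0.15 to 0.15, beside 0.67 for Utp14b. The 3 with the smallest p, Krr1, Imp3 and Utp6, had values of -0.13, -0.15 and -0.092 (edgeR adjusted p = 0.492, 0.501 and 0.505).

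Of 32 sialic acid genes 25 were tested, with 2 higher and 1 lower at an unadjusted p under 0.05. St3gal6 and St6galnac3, which attach sialic acid to glycans, had log2 fold changes of 0.42 (SE 0.135, edgeR adjusted p = 0.447) and 0.32 (SE 0.117, adjusted p = 0.450), and St6galnac3 did not overlap between groups. Gne, the first enzyme of sialic acid synthesis, had one of -0.16 (SE 0.072, edgeR adjusted p = 0.485). Of 23 other SLC22 carriers 9 were tested, with 1 higher and 1 lower at that p. Slc22a4, the ergothioneine transporter, had a value of 0.38 (SE 0.168, edgeR adjusted p = 0.482), and the organic cation transporter Slc22a2 had one of -0.41 (SE 0.162, adjusted p = 0.454).

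Around Spon2, 12 of 13 genes for spondins, thrombospondins, R-spondins and integrins were tested, with 2 higher and 2 lower at an unadjusted p under 0.05. The 3 named by the smallest p were the R-spondins Rspo3, Rspo1 and Rspo2. These encode secreted Wnt enhancers, a family apart from the spondins. Rspo3 measured 7.20 CPM ± 0.828 in the control and 5.51 CPM ± 0.915 in the AZ6983 group (SD, n = 6 each) without overlap (log2 fold change -0.39, SE 0.128, edgeR adjusted p = 0.448). Rspo1 and Rspo2 had log2 fold changes of 0.41 (SE 0.149, adjusted p = 0.450) and -0.71 (SE 0.279, adjusted p = 0.454). Of 19 gamma-glutamyl and transglutaminase genes 12 were tested, 0 passed the unadjusted p, and Gclc, the catalytic subunit of the first enzyme of glutathione synthesis, had a value of -0.20 (SE 0.093, edgeR adjusted p = 0.492), beside -0.35 for Ggact. Tgm1 had one of 0.47 (SE 0.236, adjusted p = 0.509) and Gss one of -0.13 (SE 0.078, adjusted p = 0.553).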

How the data were processed

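Raw read counts per gene symbol were deposited by the authors for 12 mice, without normalization. Per the submitters' processing notes, the tools were CASAVA 1.8.2, STAR 2.5.2b and HTSeq 0.6.1p1 with build mm10. The notes give no roles, and the annotation and strand setting are not given in the sources used here. Groups came from the sample labels, 11 columns matched a mouse number in full, and the column of A1 matched 3 of its 4 digits. Nothing names litters or batches, so p-values measure the spread between these mice. The 3 rows that name no gene held reads on no gene, reads with several alignments (18.1% to 23.2%) and ambiguous reads (0.606% to 0.698%), and entered neither library sizes nor tests.

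The members and gene lists were chosen with earlier results of these data known. edgeR 4.0.16 in R 4.3.3 (TMM, filterByExpr, quasi-likelihood, Benjamini-Hochberg over all 15857 genes, 10% FDR) gave log2 fold changes from group alone, and slopes on the share of reads on no gene or on a tissue score from models with group. Standard errors are the effect divided by the square root of F. Log2 CPM used a prior count of 2. Within-group correlations used values centred on the group mean and 100000 two-sided permutations of mice within groups, and exact permutations inside a group. Alternatives were DESeq2 1.42.0, other normalizations and filters, 5% FDR and each mouse left out. Named genes were every member, Chrna7 and Apoe as checks, Utp14a and Acsl3, of each pathway list those past 10% FDR or else the 3 with the smallest p, and the 3 genes most like each member. One gene named by this rule is not reported here. Positions, exons and 75-base words came from GENCODE M21 (GRCm38, the same assembly as mm10), and promoters from RefSeq, where 8 of 9 members had an entry. The steps were tested on simulated data. No column was without a sample.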

Additional observations from a re-analysis of the deposited data

Results flagged for a closer look

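Each group of 6 mice was searched for 1 mouse far from the rest, in the log2 CPM of the 9 genes, the share of reads on no gene and the 10 tissue scores. Of 40 groups 4 held such a mouse, and chance gives about 1 in 20. None of them was in the values of the 9 genes or in the share. The T cell score of A4 was 4.94, against -0.04 to 0.94 in the other AZ6983 mice. The brown fat score of C6 was 6.92, against 7.75 to 7.95 in the other controls, and its endothelium score was 6.16, against 6.33 to 6.36. The white fat score of C2 was 8.48, against 7.85 to 8.06 in the other controls.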

How the results depend on the processing

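All 9 group differences kept their direction under each of 18 alternatives, and in 158 of 162 cases moved by less than the spread between replicates. The share is the percent of reads on no gene. The exceptions came with this share as a covariate beside group, where Cmah, Mbd6, Ggact and Dennd1a had log2 fold changes of 0.31, 0.38, -0.26 and 0.17. The number of members whose groups did not overlap, 6, was 5 with DESeq2 size factors, 4 with total counts, and 4 to 8 when 1 mouse was left out (4 without A4, 8 without A1). The filter and normalization were repeated after each removal. With values held fixed, leaving out a mouse cannot make separated groups overlap, so counts under 6 came with the repeated normalization. Slopes on the share passed for 0 members, for 1 (Mbd6) with DESeq2, and for 0 to 1 when 1 mouse was left out (1 without A5). Of all genes, 1 passed on the share, 0 at 5% FDR, 0 with DESeq2 size factors, 0 without the filter on low counts and 581 with DESeq2. That number was 0 to 690 when 1 mouse was left out, with 12 without A4 and 690 without A5, and the cause was not tested. Of member and tissue pairs, 1 passed, 0 at 5% FDR, and 0 to 4 when 1 mouse was left out, with 0 without C2, C4, C6, A1, A5 or A6, 2 without C3 or C5 and 4 without A2. Pathway genes that passed stayed at 0 in every alternative run with edgeR or DESeq2. No paired analysis was possible because the groups share no replicate numbers in the labels. Spon2, at 29 to 133 counts per mouse, is limited most by depth. The numbers that end the column names were 3 to 7 for 5 controls and 1, 2 and 8 to 11 for the AZ6983 mice. Their meaning stayed unknown.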
